A study of Bos taurus with 9 samples.

Results

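New double sites are short stretches of the cattle genome that carried peaks of both acetyl marks, H3K27ac and H3K9ac, in butyrate-treated MDBK cells and no peak of either mark in untreated cells. Each site is a butyrate H3K27ac peak shorter than 1000 bp on a nuclear chromosome that a butyrate H3K9ac peak overlapped by at least 1 bp and that no control H3K27ac or control H3K9ac peak touched. There were 25608 such sites among the 187465 nuclear butyrate H3K27ac peaks, or 13.7% (95% Wilson interval, 13.5 to 13.8), and among 673926 peaks in the series. The peak lists themselves chose the sites, so the presence of both marks after treatment and their absence before it are a description and not a result.

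The study profiled MDBK cells, an established epithelial line from bovine kidney, by ChIP-seq with antibodies to H3K9ac, H3K27ac, RNA polymerase II (Pol II) and H3K9me3. The control groups were untreated cells, and the butyrate groups were cells of the same line cultured, per the study's methods, with 5 mM butyrate for 24 h. Each of the 8 combinations had 1 library, so the conditions could be compared by description only, with no test. Intervals in parentheses are Wilson intervals for shares and exact binomial intervals for medians, and they cover counting error only. Sequencing used lane 4 for all control libraries and lane 5 for all butyrate libraries, so lane and treatment cannot be told apart.

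Butyrate, a short-chain fatty acid from microbial fermentation in the rumen, blocks histone deacetylases, the enzymes that remove acetyl groups from histone tails. Acetylation of lysine 27 of histone H3 is found at active enhancers and promoters, and acetylation of lysine 9 is best known from active promoters. Different sets of acetyltransferases are the main writers of these marks, CBP and p300 for lysine 27 and GCN5 and PCAF for lysine 9. Pol II marks positions where the transcription machinery is loaded, and trimethylation of lysine 9 marks repressed chromatin. It excludes acetylation of the same residue.

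The first question was how often a position that lacked acetyl peaks in control cells gained the second mark along with the first. Peaks that met no control acetyl peak made up 59.9% of all nuclear butyrate H3K27ac peaks, and butyrate H3K9ac overlapped 34.9% of all nuclear butyrate H3K27ac peaks. Of the 111031 short H3K27ac peaks that met no control acetyl peak, 23.1% (22.8 to 23.3) carried H3K9ac and are the new double sites. The other 85423, here called new H3K27ac-only sites, did not. Among the 66483 short H3K27ac peaks that did meet a control acetyl peak, 46.8% (46.4 to 47.2) carried H3K9ac. The share was lower at positions with no control acetyl peak, but peak length was not held equal in this comparison. Among new short peaks on the autosomes the share carrying H3K9ac rose with length. It was 16.4% (16.1 to 16.7) under 300 bp and 51.0% (49.9 to 52.1) from 600 bp. Seen from the other list, the new double sites took in 25579 of the 115104 nuclear butyrate H3K9ac peaks, or 22.2% (22.0 to 22.5), and 37.1% (36.7 to 37.5) of the 65835 H3K9ac peaks that met no control acetyl peak.

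A site can be new by its H3K27ac peak while its H3K9ac peak reaches back to a position that was acetylated before. Of the H3K9ac peaks at new double sites, 1167 met a control acetyl peak outside the H3K27ac peak, 654 of them a control H3K9ac peak and 692 a control H3K27ac peak. This concerned 1182 sites, or 4.62% (4.37 to 4.88). At the remaining sites neither peak of the pair touched a control acetyl peak.

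Near the limits of the rule, 493 sites had an H3K27ac peak of 900 bp or more, and 322 peaks that met every other condition were left out because they exceeded the limit by less than 100 bp. In 269 sites the overlap of the 2 marks was at most 10 bp, while 267 new H3K27ac-only sites lay within 10 bp of a butyrate H3K9ac peak. A control acetyl peak ended within 50 bp of 543 sites, and 657 short peaks with both marks were left out for an overlap with control acetylation of at most 50 bp.

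New double sites were compared with 3 other classes of short butyrate H3K27ac peaks. The first was the new H3K27ac-only sites. The second was 7348 kept H3K27ac sites with new H3K9ac, which met a control H3K27ac peak but no control H3K9ac peak and carried H3K9ac after butyrate. The last was 16680 lasting double sites, which met control peaks of both marks and carried H3K9ac after butyrate. The remaining 42455 short peaks were not used as a class. These classes were defined by the same lists, so only Pol II and H3K9me3, which the rule did not use, are independent readouts of them.

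The H3K27ac peak of a new double site was 345 bp long at the median (343 to 349), with quartiles of 252 and 505 bp. New H3K27ac-only sites were shorter, at 270 bp (269 to 271). Kept H3K27ac sites with new H3K9ac were longer, at 448 bp (441 to 455), and lasting double sites were the longest of the 4 classes, at 569 bp (564 to 574). New double sites covered 10277 kb in all, which was 12.7% of the bases under butyrate H3K27ac peaks.

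The H3K9ac peak at a new double site was the smaller of the pair in most cases. In the 24661 sites with a single H3K9ac peak its median length was 277 bp (276 to 279), against 299 bp (295 to 303) in kept H3K27ac sites with new H3K9ac and 336 bp (333 to 339) in lasting double sites. The H3K9ac peak was longer than its H3K27ac peak in 34.6% of the new double sites (34.0 to 35.2), in 27.2% (26.2 to 28.3) of the kept sites with new H3K9ac and in 21.3% (20.6 to 21.9) of the lasting double sites. Another 935 sites held 2 H3K9ac peaks and 12 held 3.

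The relative position of the marks differed little between the 3 classes that carry both. H3K9ac covered 61.5% of the H3K27ac peak at the median in new double sites (60.9 to 62.0), 59.4% (58.5 to 60.3) in kept sites with new H3K9ac and 61.7% (61.2 to 62.4) in lasting double sites. The centres of the peaks lay 89.5 bp apart at the median (88.0 to 91.0) in new double sites, 93.5 bp (91.0 to 97.5) in kept sites with new H3K9ac and 88.0 bp (85.5 to 90) in lasting double sites. What differed was the arrangement, but peak lengths, which also differed between the classes, were not held equal. In new double sites the peaks were staggered, with each reaching past the other, in 52.3% (51.6 to 52.9), and H3K9ac lay inside H3K27ac in 35.8% (35.2 to 36.4). Kept sites with new H3K9ac stood between, with 42.9% (41.7 to 44.1) staggered and 46.9% (45.7 to 48.1) with H3K9ac inside. In lasting double sites 33.7% (32.9 to 34.4) were staggered and H3K9ac lay inside H3K27ac in 58.0% (57.2 to 58.8).

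**Figure D1:**
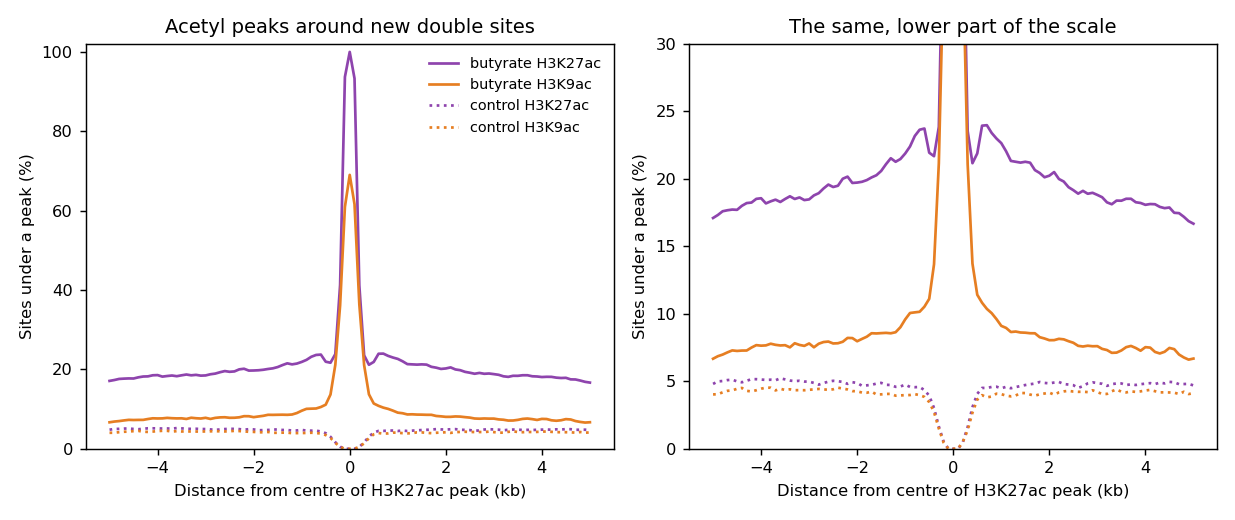
Percent of the 25608 new double sites that lay under a peak of each acetyl list, in steps of 100 bp up to 5 kb from the centre of the H3K27ac peak, on the full scale and on its lower part. The butyrate H3K9ac list reached 69.0% at the centre, the control lists were at 0 there because the rule excluded them, and at 4 to 5 kb the butyrate lists stood at 17.7% for H3K27ac and 7.18% for H3K9ac.

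The profile of acetyl peaks around the sites is a description, since the rule used these lists: it fixed the length limit and both butyrate marks at the site, and it kept control acetyl peaks out. At the centre 69.0% of the sites lay under butyrate H3K9ac, at 500 to 1500 bp from it 9.54%, and at 4 to 5 kb 7.18%. Butyrate H3K27ac fell from 100% at the centre, which the rule fixed, to 22.2% at 500 to 1500 bp and 17.7% at 4 to 5 kb. Control H3K27ac stood at 4.55% at 500 to 1500 bp and 4.94% at 4 to 5 kb, and control H3K9ac at 3.95% and 4.24%. Around lasting double sites, which were required to meet control peaks, control H3K27ac stood at 26.4% and 11.9% and control H3K9ac at 21.3% and 10.1% over the same distances.

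The next question was where the new double sites lay relative to acetylation already present in control cells. The median gap to the nearest control acetyl peak was 1.97 kb (1.92 to 2.02), with quartiles of 0.604 and 5.82 kb. Within 1 kb of a control acetyl peak lay 34.4% of the sites (33.8 to 34.96), within 10 kb 84.6% (84.2 to 85.1) and within 100 kb 99.5% (99.4 to 99.6). Only 121 sites lay farther than 100 kb from any control acetyl peak. New H3K27ac-only sites lay somewhat farther out, with a median gap of 2.61 kb (2.57 to 2.65) and 29.3% (29.0 to 29.6) within 1 kb. The gap to the nearest control H3K27ac peak was 3.14 kb (3.06 to 3.23) and to the nearest control H3K9ac peak 4.20 kb (4.10 to 4.31) at the median. The control H3K27ac list was the longer, with 94603 nuclear peaks against 74114.

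**Figure D2:**
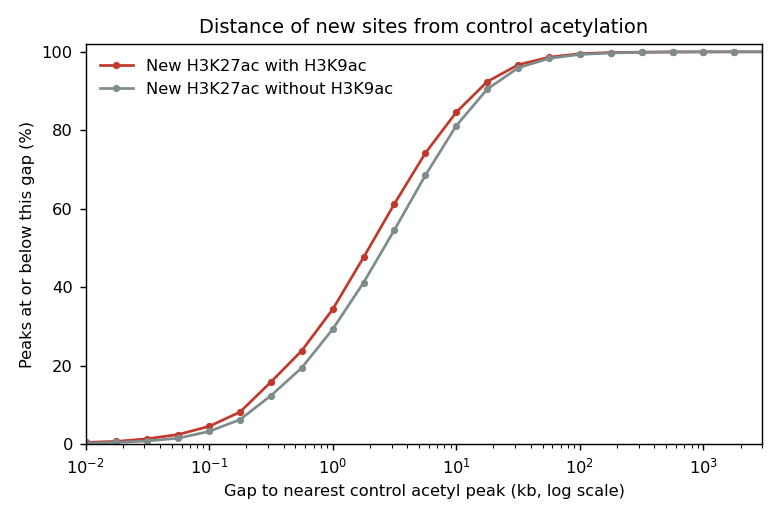
Cumulative percent of peaks against the gap to the nearest control acetyl peak, in kb on a log scale, for new double sites and new H3K27ac-only sites. The median gaps were 1.97 and 2.61 kb, and 84.6% and 81.2% of the peaks lay within 10 kb.

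Control acetyl peaks stood within 10 kb on both sides of 45.2% of the new double sites (44.6 to 45.8), on 1 side of 39.4% (38.8 to 40.0) and on neither side of 15.4% (14.9 to 15.8). In new H3K27ac-only sites these shares were 40.3% (39.9 to 40.6), 40.9% (40.6 to 41.2) and 18.8% (18.6 to 19.1). The nearest control H3K27ac peak was itself still present after butyrate in 70.7% of the new double sites (70.1 to 71.2), in 68.4% (68.1 to 68.7) of the new H3K27ac-only sites, and in 65.9% (65.6 to 66.2) of all control H3K27ac peaks. At new double sites this share was 78.8% (77.2 to 80.3) where the gap to that peak was 0.5 to 1 kb and 47.0% (43.3 to 50.7) where it was 50 kb or more. New H3K27ac-only sites had a like course, with 75.8% (74.9 to 76.7) and 48.1% (46.2 to 49.99).

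Within the butyrate H3K27ac list the sites had close neighbours. The next H3K27ac peak was 0.378 kb away at the median (0.369 to 0.388), compared with 0.552 kb (0.545 to 0.560) for new H3K27ac-only sites and 0.201 kb (0.201 to 0.202) for lasting double sites. That neighbour met no control acetyl peak in 70.6% of the new double sites (70.1 to 71.2), and it carried H3K9ac in 43.7% (43.1 to 44.3). For new H3K27ac-only sites the neighbour met no control acetyl peak in 73.0% (72.7 to 73.3), and it carried H3K9ac in 28.4% (28.1 to 28.7). The neighbour was itself a new double site in 24.4% of the cases (23.9 to 24.9) for new double sites and in 14.4% (14.2 to 14.7) for new H3K27ac-only sites.

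Pol II was the first readout independent of the rule. The butyrate Pol II list overlapped 7.73% of all short butyrate H3K27ac peaks, and 2130 new double sites, or 8.32% (7.99 to 8.66). New H3K27ac-only sites had 3.01% (2.90 to 3.13), kept H3K27ac sites with new H3K9ac 12.5% (11.8 to 13.3) and lasting double sites 24.98% (24.3 to 25.6). The share at new double sites was near that of the whole list. It lay above that of new sites without H3K9ac and below that of sites with both marks in both conditions, with no overlap of the intervals. Read from the Pol II list, 2134 of its 31225 nuclear peaks lay at new double sites (6.83%), and 4326 (13.9%) at lasting double sites.

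Longer peaks are more easily met by another list, and the classes differed in length, so the shares were also taken within bands of H3K27ac peak length. Under 300 bp, butyrate Pol II overlapped 5.09% of the new double sites (4.67 to 5.53), 2.22% of the new H3K27ac-only sites (2.09 to 2.35) and 14.8% of the lasting double sites (13.4 to 16.4). From 600 bp up to the limit the shares were 16.2% (15.1 to 17.3), 8.52% (7.69 to 9.44) and 31.4% (30.4 to 32.5). Kept H3K27ac sites with new H3K9ac stood between new and lasting double sites in all 4 bands, at 6.92% (5.82 to 8.20) under 300 bp and 18.5% (16.9 to 20.2) in the longest band. The order of the 4 classes was the same in each band, although the intervals of new double sites and kept sites with new H3K9ac overlapped in the longest band. At new double sites of 900 bp or more the share was 21.1%, and at the 916 otherwise equal peaks of 1000 bp and longer it was 26.0%.

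The control Pol II list gave a different picture. It overlapped 4.99% of all short butyrate H3K27ac peaks and 1869 new double sites, or 7.30% (6.99 to 7.62), which is 3.32% of its own 56225 nuclear peaks. New H3K27ac-only sites had 3.45% (3.33 to 3.58), kept H3K27ac sites with new H3K9ac 8.07% (7.47 to 8.72) and lasting double sites 9.14% (8.71 to 9.59). Within length bands the 3 classes with both marks after butyrate had overlapping intervals in all 4 bands. Between 300 and 400 bp, new double sites had 6.38% (5.77 to 7.06), kept sites with new H3K9ac 6.63% (5.43 to 8.07) and lasting double sites 6.39% (5.44 to 7.51). From 600 bp up to the limit they had 11.1% (10.2 to 12.1), 10.3% (9.10 to 11.7) and 11.4% (10.7 to 12.1). The positions of new double sites, which had no acetyl peak in control cells, thus met control Pol II about as often as positions of like length that had both marks.

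**Figure D3:**
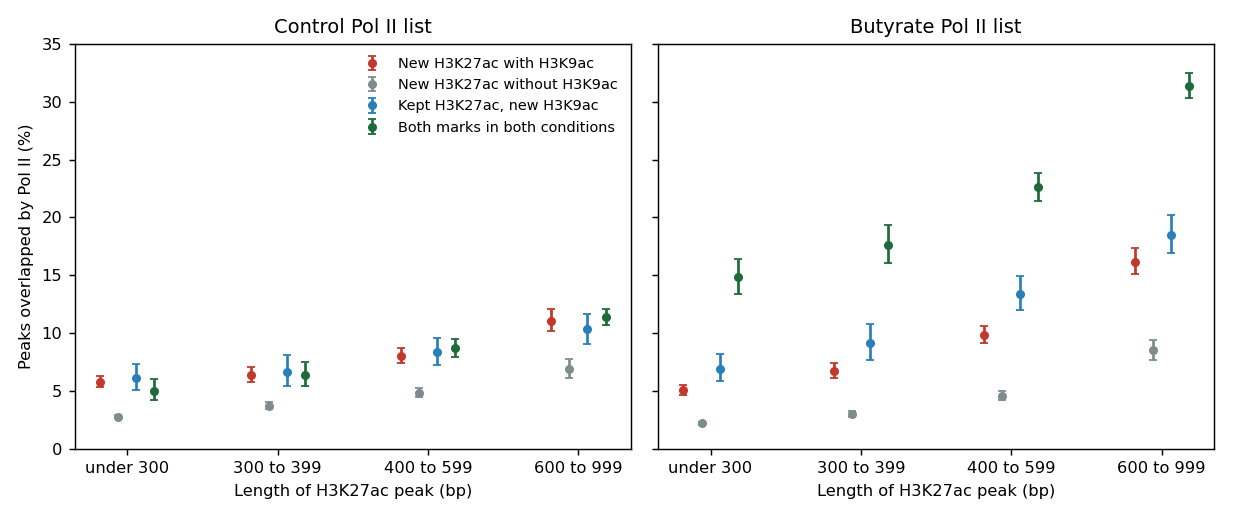
Percent of short butyrate H3K27ac peaks overlapped by control Pol II and by butyrate Pol II in 4 bands of H3K27ac peak length (bp), for the 4 classes, with bars for 95% Wilson intervals. In the control list the 3 classes with H3K9ac lie together, while in the butyrate list lasting double sites stand highest, at 31.4% in the longest band, and new double sites lie between them and new H3K27ac-only sites.

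Pol II peaks of the 2 conditions fell mostly on different sites, in new double sites as in the other 3 classes. Of the sites, 1895 had Pol II after butyrate alone (7.40%), 1634 in control alone (6.38%) and 235 in both (0.918%), while 21844 (85.3%) had Pol II in neither list. In lasting double sites 3698 of 16680 (22.2%) had Pol II after butyrate alone, 1057 (6.34%) in control alone and 468 (2.81%) in both. The share with Pol II in control alone was thus nearly equal in these classes, and the share with Pol II after butyrate alone was 7.40% (7.09 to 7.73) in new and 22.2% (21.5 to 22.8) in lasting double sites. The order of the conditions at new double sites was not the same throughout. Without any joining, sites under 300 bp had 5.81% (5.37 to 6.28) under control and 5.09% (4.67 to 5.53) under butyrate Pol II, with overlapping intervals. When peaks less than 1 kb apart were joined in every list before the rule was applied, the order over all sites turned round. The shares were then 7.80% (7.26 to 8.38) under control and 7.18% (6.66 to 7.74) under butyrate Pol II, also with overlapping intervals.

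**Figure D4:**
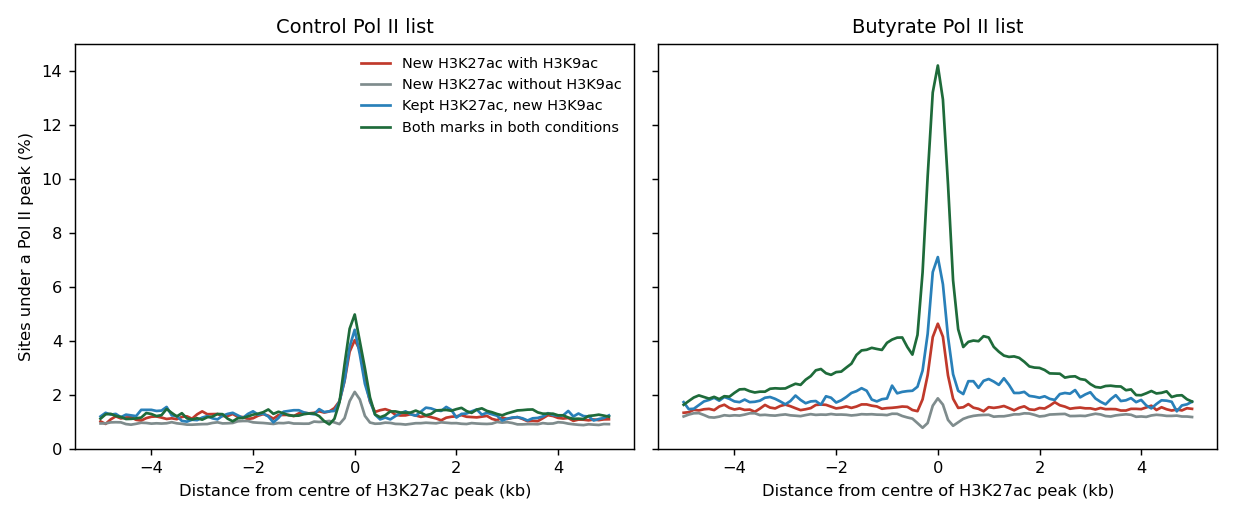
Percent of sites under a control Pol II peak and under a butyrate Pol II peak, in steps of 100 bp up to 5 kb from the centre of the H3K27ac peak, for the 4 classes. At the centre new double sites reached 4.03% in the control list and 4.64% in the butyrate list, against 4.98% and 14.2% for lasting double sites.

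The Pol II profile around the new double sites was a narrow peak on a flat base in both conditions. Butyrate Pol II covered 4.64% of the centres, 1.53% of positions at 500 to 1500 bp and 1.47% at 4 to 5 kb. Control Pol II covered 4.03%, 1.30% and 1.10%. Lasting double sites had butyrate Pol II at 14.2% of the centres, 3.799% at 500 to 1500 bp and 1.94% at 4 to 5 kb. Their control Pol II values were 4.98%, 1.27% and 1.20%. The butyrate Pol II peaks at new double sites were 233 bp long at the median (230 to 237), close to the 235 bp (234 to 236) of the whole list.

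These shares were also taken by distance from control acetylation. Butyrate Pol II overlapped 8.64% (7.94 to 9.40) of the new double sites within 0.5 kb of a control acetyl peak, 9.71% (8.72 to 10.8) of those at 0.5 to 1 kb, 6.49% (5.72 to 7.35) of those at 10 to 50 kb and 7.29% (5.19 to 10.2) of the 425 sites at 50 kb or more. For control Pol II the share was 6.72% (6.09 to 7.40) within 0.5 kb, 7.14% (6.34 to 8.04) at 10 to 50 kb and 3.76% (2.33 to 6.03) at 50 kb or more.

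H3K9me3 was the second independent readout. Butyrate H3K9me3 overlapped 2.61% of all short butyrate H3K27ac peaks and 863 new double sites, or 3.37% (3.16 to 3.60), which is 0.968% of its 89478 nuclear peaks. Control H3K9me3 overlapped 2.10% of all short butyrate H3K27ac peaks and 783 new double sites, or 3.06% (2.85 to 3.28), which is 3.03% of its 25623 nuclear peaks. New H3K27ac-only sites had 2.22% (2.13 to 2.33) after butyrate and 1.30% (1.22 to 1.38) in control. Lasting double sites had 3.60% (3.33 to 3.89) and 4.38% (4.08 to 4.70). Within bands of peak length the control H3K9me3 intervals of new and lasting double sites overlapped in all 4 bands, with 2.43% (2.14 to 2.75) and 2.54% (1.96 to 3.29) under 300 bp and 4.45% (3.86 to 5.13) and 5.32% (4.84 to 5.85) in the longest band. H3K9me3 in both conditions was met at 83 new double sites (0.324%) and was rare in the other classes too. It was met at 0.164% of new H3K27ac-only sites, 0.626% of kept sites with new H3K9ac and 0.588% of lasting double sites.

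H3K9me3 was listed more often at new double sites with Pol II than at those without it, and the same was seen in the other 3 classes. Butyrate H3K9me3 was found at 127 of the 2130 sites with butyrate Pol II, or 5.96% (5.03 to 7.05), and at 3.13% (2.92 to 3.37) of the sites without it. Control H3K9me3 was found at 142 of the 1869 sites with control Pol II, or 7.60% (6.48 to 8.89), and at 2.70% (2.50 to 2.91) of those without it. For new H3K27ac-only sites these shares were 4.32% (3.60 to 5.17) and 2.16% (2.06 to 2.26) after butyrate and 4.48% (3.79 to 5.29) and 1.18% (1.11 to 1.26) in control. Lasting double sites had 4.87% (4.26 to 5.57) and 3.17% (2.88 to 3.49), and 11.1% (9.66 to 12.8) and 3.70% (3.41 to 4.01). Peak length and chromosome were not held equal between sites with and without Pol II. At new double sites under 300 bp the shares under butyrate Pol II and butyrate H3K9me3 were 5.09% and 2.92%. From 600 bp up to the limit they were 16.2% and 4.63%. All ChIP lists were called against the same input library. The part of length, chromosome or the input in these overlaps was not tested.

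Chromosomes 5 and 14, singled out after their values were seen, held 2036 of the new double sites and had the highest shares in each of these overlaps. The interval of chromosome 14 overlapped those of other chromosomes, as under butyrate Pol II, where it had 11.4% (9.26 to 13.9) and chromosome 25 had 10.9% (8.19 to 14.5). On chromosomes 5 and 14 together control Pol II overlapped 15.8% of the sites (14.3 to 17.5), butyrate Pol II 13.4% (12.0 to 14.9), control H3K9me3 10.2% (8.93 to 11.6) and butyrate H3K9me3 9.72% (8.51 to 11.1). On the other chromosomes the shares were 6.56% (6.25 to 6.89), 7.88% (7.55 to 8.23), 2.44% (2.25 to 2.65) and 2.82% (2.62 to 3.04). The pattern was not particular to new double sites. Control Pol II overlapped 19.97% (18.1 to 21.9) of the lasting double sites on chromosomes 5 and 14 and 7.90% (7.48 to 8.34) elsewhere, and control H3K9me3 13.3% (11.7 to 14.96) and 3.36% (3.08 to 3.66). Kept sites with new H3K9ac had 17.8% (15.3 to 20.7) and 6.93% (6.34 to 7.57) under control Pol II. For new H3K27ac-only sites the share under control H3K9me3 was 2.55% (2.21 to 2.95) and 1.18% (1.11 to 1.26). Their share under butyrate Pol II was 3.01% (2.63 to 3.43) on chromosomes 5 and 14 and 3.01% (2.89 to 3.13) elsewhere, and their share under control Pol II was 4.63% (4.16 to 5.15) and 3.35% (3.22 to 3.47). Without chromosomes 5 and 14 the order of the 4 classes under butyrate Pol II was as before, with 3.01%, 7.88%, 11.9% and 24.6%.

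Over the genome there were 9.63 new double sites per Mb, with densities on the autosomes from 6.63 per Mb on chromosome 29 to 15.3 per Mb on chromosome 19. As a share of the short H3K27ac peaks that met no control acetyl peak, they ranged over the 29 autosomes from 20.0% (18.4 to 21.6) on chromosome 18 to 26.0% (24.5 to 27.6) on chromosome 22. The X chromosome was far outside this range. It held 92 new double sites, or 0.618 per Mb, and they made up 4.92% (4.03 to 5.996) of its 1870 new short H3K27ac peaks, against 23.4% (23.1 to 23.6) over all autosomes.

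**Figure D5:**
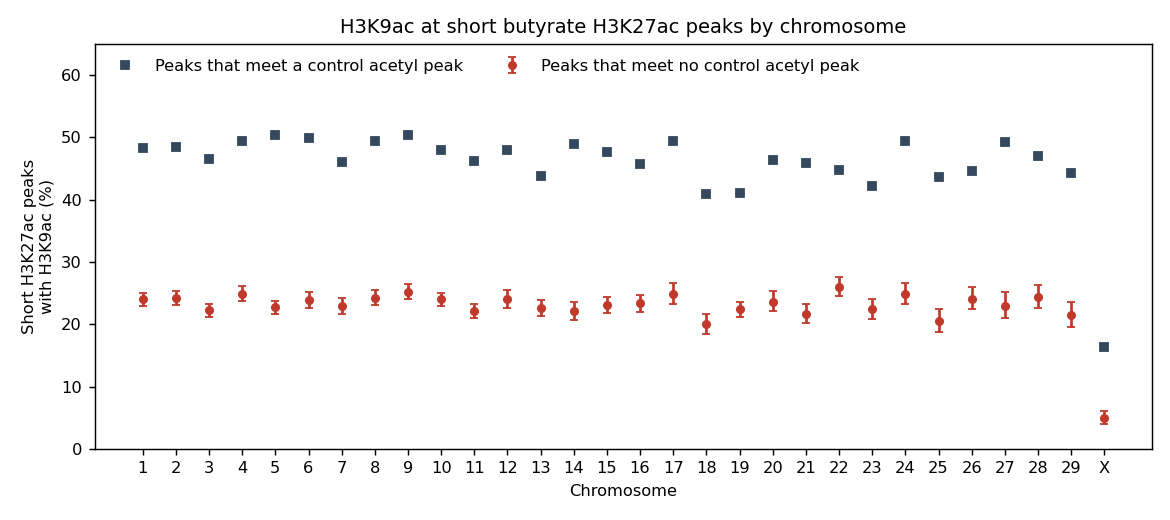
Percent of short butyrate H3K27ac peaks that carried butyrate H3K9ac on each chromosome, for peaks that met no control acetyl peak (circles, with bars for 95% Wilson intervals) and for peaks that met one (squares). Autosomes lie between 20.0% and 26.0% for the first and between 40.9% and 50.4% for the second, and the X chromosome lies at 4.92% and 16.4%.

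The lower share on the X chromosome was seen in every band of peak length. Of new X peaks under 300 bp, 3.21% (2.36 to 4.36) carried H3K9ac, compared with 16.4% (16.1 to 16.7) on the autosomes, and of those of 600 bp or more 19.6% (10.7 to 33.2), compared with 51.0% (49.9 to 52.1). It was not limited to new positions, since 16.4% of the 859 short X peaks that met a control acetyl peak carried H3K9ac, against 40.9% to 50.4% on single autosomes. The X chromosome carried 2746 butyrate H3K27ac peaks and 601 butyrate H3K9ac peaks, whereas control cells had 1583 and 852. New short H3K27ac peaks were mostly without H3K9ac on every chromosome, and on the X chromosome the share without it was the largest.

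New double sites occurred in 2059 of 2677 windows of 1 Mb (76.9%), with a median of 6 per window, and the 267 windows with most sites held 34.0% of them. The windows named here were picked for holding most of these sites, so more acetyl peaks after butyrate in them follow from the choice. Over all nuclear chromosomes H3K27ac peaks went from 94603 to 187465 and H3K9ac peaks from 74114 to 115104. The richest window was chr1:79000001-80000000 with 83 sites. In it H3K27ac peaks rose in number from 156 to 444 and H3K9ac peaks from 111 to 210, and covered length went from 62.4 to 210.3 kb and from 39.2 to 66.1 kb. The second was chr22:30000001-31000000 with 78 sites, where H3K27ac peaks went from 98 to 348 and H3K9ac peaks from 70 to 193. Next came chr15:43000001-44000000 with 65 sites. Its 191 control H3K27ac and 163 control H3K9ac peaks were more than in either window above, and after butyrate it held 421 and 274.

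Sites with gaps of at most 10 kb were joined into chains. The chains named below were picked for holding most sites, so more acetyl peaks after butyrate in them likewise follow from the choice. Of the sites, 8623 stood alone and 16985 (66.3%) belonged to 5382 chains of 2 or more, among them 807 chains of 5 or more with 21.2% of the sites. The longest chain by number of sites was chr1:21615823-21714385, with 20 sites in 98.6 kb. In it 21 control H3K27ac peaks covered 6.87 kb and 86 butyrate peaks 50.9 kb, and the H3K9ac peaks rose from 15 to 52. The second, chr22:30535897-30601797, had 18 sites in 65.9 kb. It held 5 control H3K27ac peaks and 1 control H3K9ac peak, covering 1.35 and 0.313 kb, against 39 and 24 peaks covering 14.3 and 6.10 kb after butyrate. Next came chr1:96125615-96201073, with 17 sites in 75.5 kb, where H3K27ac peaks went from 19 to 69 and H3K9ac peaks from 12 to 38. Pol II peaks in both chains on chromosome 1 rose from 7 to 13 and from 2 to 11, and in the chain on chromosome 22 fell from 5 to 2. Over all nuclear chromosomes Pol II peaks fell from 56225 to 31225. Butyrate Pol II touched 3, 2 and 3 of the new double sites in the 3 chains.

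Single sites were named by rule. Positions are those of the deposited lists, and the assembly named in the submitters' processing notes is UMD3.1. The lists do not state whether starts are counted from 0, as was assumed, or from 1, so printed starts may be 1 bp too high. No gene annotation or sequence of that assembly was used here, so genes at these positions are not given. The farthest from control acetylation were a pair at chr29:14153436-14154244 and chr29:14154298-14154837, 809 and 540 bp long, which lay 1331 and 1332 kb from any control acetyl peak and shared the H3K9ac peak chr29:14153901-14154677. Next came chr4:256-529, at the very start of its chromosome, 955 kb from the nearest control peak. None of these carried Pol II or H3K9me3 in either condition.

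The longest Pol II peak at a new double site, chr9:73304602-73307510, was 2909 bp long and covered the whole of the 375 bp site chr9:73304718-73305092, which also carried a control Pol II peak and stood 0.213 kb from a control H3K9ac peak. The next were chr13:31952843-31954433 (1591 bp) and chr13:31949413-31950702 (1290 bp), at the neighbouring sites chr13:31952585-31952868 and chr13:31950513-31951442. Control Pol II was present at both, and the nearest control acetyl peak was 5.78 and 3.71 kb away. The longest H3K9ac peaks were chr6:37879155-37881003 (1849 bp), chr7:67560770-67562396 (1627 bp) and chr14:39282972-39284495 (1524 bp). Each covered the whole of a much shorter H3K27ac peak, of 420, 473 and 225 bp, with a control acetyl peak 0.387, 0.154 and 0.211 kb from it.

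The longest new double sites were chr18:39476809-39477807 and chr20:62989863-62990861, both at the length limit, followed by chr1:140468068-140469065, chr5:57098452-57099449 and chr7:1506530-1507527, each 1 bp shorter. They ranged widely in their share of H3K9ac, from 4.40% of the length at the chromosome 18 site to 61.9% at the chromosome 20 site, which held 3 H3K9ac peaks. Of these 5 sites, the one on chromosome 7 met a control Pol II peak, and none met butyrate Pol II or H3K9me3.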

How the data were processed

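Peak lists of 8 ChIP-seq libraries of MDBK cells were analysed, each placed in its group by its title; 1 input library had no list here. Per the methods and processing notes of the study, the authors aligned 75-nt reads with BWA to UMD3.1, kept uniquely placed reads, and called peaks in each library with MACS2 at default settings against that input. Trim Galore 0.4.1 is also listed. The deposited lists hold chromosome, start and end in base pairs, without score, p-value or read depth. Peak number and length depend on depth, which was not used here. Starts were read as counted from 0 and printed with 1 added. The shortest peak was 199 bp by subtraction in all lists, so starts may already be counted from 1.

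Overlap meant at least 1 bp. Shares have 95% Wilson intervals and medians exact binomial intervals. No test between conditions was run. The rule for the members, the classes and the regions to be named (5 longest sites, 3 farthest from control acetylation, 3 with the longest Pol II and 3 with the longest H3K9ac peak, 3 chains and 3 windows with most sites) were chosen with earlier results of these data known. On 10 chromosomes the last peak lay over 1 Mb beyond the last gene of the available table of assembly ARS-UCD2.0, so gene positions and sequences were not used here. The procedure was tested on simulated data of 187465 peaks with planted classes, and all 28021 planted members were recovered. Alternatives were a 50% overlap, a 1 kb distance from control peaks, a 300 bp minimum, the longest butyrate peaks, joined peaks, no length limit and autosomes only. Python 3.11.15, numpy 2.4.6, pandas 2.3.3, scipy 1.17.1 and matplotlib 3.10.9 were used.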

Additional observations from a re-analysis of the deposited data

How the results depend on the processing

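No paired analysis was possible because the labels give 1 library for each mark and condition. Of 85 alternative values, 32 stayed within the 95% interval of the value reported (within 1.5 times for a count) and 53 moved. The causes were not tested. With an H3K9ac overlap of 50% there were 16395 sites, 14.8% of new short H3K27ac peaks, with a median length of 313 bp and butyrate Pol II at 7.95%. With no control acetyl peak within 1 kb there were 16806 sites (21.8%), a median distance of 4.08 kb and butyrate Pol II at 7.95%. With the longest butyrate acetyl peaks, as many as in control, there were 9950 sites (23.6%), 490 bp long and 1.83 kb from control acetylation, with butyrate Pol II at 11.4%, control Pol II at 8.94%, butyrate H3K9me3 at 3.92% and control H3K9me3 at 3.68%.

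A minimum of 300 bp in all lists left 11337 sites (17.6%), 502 bp long and 4.45 kb from control acetylation, and moved these 4 shares most, to 3.70%, 2.14%, 1.15% and 1.07%. This minimum also removed the shorter peaks of the Pol II and H3K9me3 lists. The upper quartile of butyrate Pol II peak length was 296 bp. Joined peaks gave 8819 sites (21.0%), 361 bp, 4.11 kb, and shares of 7.18%, 7.80%, 4.23% and 3.61%. Without a length limit the H3K9ac share was 23.6%, the median 354 bp and butyrate Pol II 8.93%. On autosomes alone the H3K9ac share was 23.4%. The butyrate Pol II profile at the centre was 3.39% for sites under 300 bp, 5.69% between 400 and 600 bp and 6.23% from 600 bp. The order of the 4 classes under butyrate Pol II was the same in all 9 alternatives for which it was computed.

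The other alternatives were chosen after seeing the data. Leaving out sites whose H3K9ac peak met control acetylation gave an H3K9ac share of 22.2%, a length of 350 bp and a distance of 2.16 kb. Leaving out chromosomes 5 and 14 gave 2.04 kb, and 7.88%, 6.56%, 2.82% and 2.44% for the 4 shares. Keeping the first-listed butyrate acetyl peaks, as many as in control, gave 7241 sites (16.3%), 432 bp, 1.62 kb, and 9.86% and 7.93% under butyrate and control Pol II. Read depth, which was not used here, limits all of these values.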

Other observations

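The rows of the lists were not in the order of the genome. In the butyrate H3K27ac list they fell into 284 blocks, each sorted by chromosome and position, the largest with 41919 rows, and the other 7 lists had 115 to 418 such blocks. What orders the blocks is not given in the sources used here. The first 10% of the butyrate H3K27ac peaks in file order had a median length of 596 bp, and 22.6% of them met butyrate Pol II. The last 10% had a median length of 282 bp, and 7.07% of them met butyrate Pol II. The course between was not a steady fall, since the Pol II share was lowest in the fifth 10%, at 3.79%, with a median length of 276.5 bp.

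By this order new double sites were spread over much of the H3K27ac list, with quartiles of 28.4% and 76.8% of the way down. Their median position was 57.1% of the way down (56.7 to 57.6), close to that of new H3K27ac-only sites (58.7%, 58.4 to 58.95) and after kept H3K27ac sites with new H3K9ac (39.4%, 37.4 to 41.8) and lasting double sites (24.4%, 23.9 to 24.9). These differences depended on peak length. Among peaks under 300 bp the median positions were 65.4% for new double sites, 62.8% for new H3K27ac-only sites, 62.0% for kept sites with new H3K9ac and 57.7% for lasting double sites. Among peaks between 400 and 600 bp the median positions were 50.5% for new double sites, 49.2% for new H3K27ac-only sites, 30.5% for kept sites with new H3K9ac and 24.4% for lasting double sites, and among those of 600 bp or more they were 28.8%, 35.3%, 25.01% and 17.6%. In the H3K9ac list the classes stood closer together, with medians of 51.1% (50.5 to 51.6) for the peaks at new double sites and 46.3% (45.3 to 47.2) for those at lasting double sites. Of the 25608 new double sites, 893 were in the first 10% of the H3K27ac list. They made up 4.76% of the peaks there and 17.0% of those in the second 10%, against 13.7% of the nuclear peaks of the list.

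Of the new H3K27ac-only sites, 27742 (32.5%) lay within 1 kb of a butyrate H3K9ac peak that did not touch them.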
